A study of Mus musculus with 2 samples.

Results

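Imprinted genes were described in the mouse forebrain at embryonic day 13.5, in 2 libraries of total RNA that form 1 group. The members were a list of 49 symbols, 42 protein-coding genes and 7 long noncoding RNAs of the known imprinted clusters, and 48 of them had a row in the gene tables, out of 42442 mouse genes matched by symbol. The exception was Peg13, which is not analysed here. Forebrains of B6NCrl embryos, an inbred strain, were pooled over the sexes, the labels name no treatment or mutation, and 10 ng of RNA longer than 200 bases went into a library. Replicates 1 and 2 are biological replicates by label, with their own tissue samples but 1 donor code, so the spread between them may be partly technical. With 1 group no comparison of conditions exists, no p-value is given, and every error is the SD of the 2 libraries (n = 2).

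Imprinted genes are transcribed mainly from the copy inherited from 1 parent. The choice is marked by DNA methylation laid down in the germ line at imprinting control regions, which are kept methylated on 1 parental copy through development by factors such as ZFP57 and TRIM28. The genes sit in clusters in which paternally expressed and maternally expressed genes are neighbours, and many clusters hold a long noncoding RNA that silences nearby genes on its own chromosome. In the brain several members are known for roles in growth, neuron survival and feeding, and some are imprinted only there or only from particular promoters. In an inbred strain the parental copies cannot be told apart, so the parental origin given for each gene below is background and the values are sums over both copies.

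The tissue label was checked against markers. Genes of the forebrain were at 1 TPM or more in both libraries for 7 of 7 markers, and 0 of 6 Hox genes of the hindbrain and spinal cord reached that level. TPM is a relative level corrected for transcript length and library size, so it can be compared between genes. Replicate 1 held 35378462 estimated counts and replicate 2 held 36793284. Markers of other tissue were present, with summed levels in replicates 1 and 2 of 480 and 252 TPM for choroid plexus, 4177 and 3245 TPM for erythroid cells and 166 and 177 TPM for meninges and mural cells, and no marker of these lists was at 0. Endothelial markers summed to 81.2 and 87.3 TPM. Of 6 markers of cartilage and muscle, 2 were at 1 TPM or more in both libraries, and Myog had no count in either. In bulk tissue, fewer cells of a type and less RNA per cell cannot be told apart.

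The sequences around the starts on which the results below turn are shown first, because several imprinted genes differ in RNA output by promoter. They were read from RefSeq windows on GRCm38.p6, of which 60 windows of 39 members were used. The window of Impact was left out. Each sequence is printed for 150 bases before to 50 bases after the transcription start, with every CG dinucleotide in capitals. Pairs from 1 gene show a start with most of the gene's RNA and another start with little of it.
Nnat, chr2:157559928-157560127, plus strand: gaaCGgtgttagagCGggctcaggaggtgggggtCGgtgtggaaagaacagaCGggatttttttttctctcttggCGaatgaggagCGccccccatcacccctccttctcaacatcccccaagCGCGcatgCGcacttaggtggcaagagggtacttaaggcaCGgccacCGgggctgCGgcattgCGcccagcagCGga
Mest, leading start, chr6:30737903-30738102, plus strand: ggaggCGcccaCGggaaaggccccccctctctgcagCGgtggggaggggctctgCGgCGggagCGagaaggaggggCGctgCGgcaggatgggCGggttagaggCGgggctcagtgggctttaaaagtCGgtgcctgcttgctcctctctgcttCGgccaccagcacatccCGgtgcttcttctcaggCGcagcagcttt
Mest, upstream start, chr6:30733356-30733555, plus strand: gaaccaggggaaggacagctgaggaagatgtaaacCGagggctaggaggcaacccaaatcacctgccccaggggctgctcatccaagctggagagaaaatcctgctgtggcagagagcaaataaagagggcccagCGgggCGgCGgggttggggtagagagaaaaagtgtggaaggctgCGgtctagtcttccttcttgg
Snrpn, leading start, chr7:60005150-60005349, minus strand: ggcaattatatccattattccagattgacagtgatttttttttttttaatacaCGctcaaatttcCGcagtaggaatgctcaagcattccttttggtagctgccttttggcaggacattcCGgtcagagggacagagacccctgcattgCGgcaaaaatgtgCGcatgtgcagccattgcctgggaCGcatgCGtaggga
Snrpn, upstream start, chr7:60140176-60140375, minus strand: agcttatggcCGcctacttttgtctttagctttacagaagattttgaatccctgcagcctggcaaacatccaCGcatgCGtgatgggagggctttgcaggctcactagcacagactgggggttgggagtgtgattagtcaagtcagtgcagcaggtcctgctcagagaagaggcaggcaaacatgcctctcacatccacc
Gnas, leading start, chr2:174329856-174330055, plus strand: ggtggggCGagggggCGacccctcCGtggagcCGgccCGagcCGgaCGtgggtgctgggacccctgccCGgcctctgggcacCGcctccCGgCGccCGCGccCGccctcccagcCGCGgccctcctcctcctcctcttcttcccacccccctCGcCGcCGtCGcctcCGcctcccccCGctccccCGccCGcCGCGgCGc
Gnas, first start, chr2:174284170-174284369, plus strand: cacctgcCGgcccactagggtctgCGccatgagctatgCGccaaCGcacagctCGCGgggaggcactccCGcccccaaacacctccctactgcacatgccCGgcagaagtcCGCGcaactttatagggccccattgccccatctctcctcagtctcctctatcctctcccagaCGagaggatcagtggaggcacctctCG
Grb10, leading start, chr11:12037371-12037570, minus strand: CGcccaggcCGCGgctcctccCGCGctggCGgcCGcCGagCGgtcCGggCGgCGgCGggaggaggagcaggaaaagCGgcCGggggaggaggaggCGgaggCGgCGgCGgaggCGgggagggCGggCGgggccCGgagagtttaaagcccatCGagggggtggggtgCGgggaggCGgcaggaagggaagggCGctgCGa
Grb10, downstream start, chr11:12027922-12028121, minus strand: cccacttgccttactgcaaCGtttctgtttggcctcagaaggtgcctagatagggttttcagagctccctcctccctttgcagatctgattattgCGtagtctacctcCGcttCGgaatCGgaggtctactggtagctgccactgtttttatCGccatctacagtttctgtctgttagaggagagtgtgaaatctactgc
Peg3, chr7:6730370-6730569, minus strand: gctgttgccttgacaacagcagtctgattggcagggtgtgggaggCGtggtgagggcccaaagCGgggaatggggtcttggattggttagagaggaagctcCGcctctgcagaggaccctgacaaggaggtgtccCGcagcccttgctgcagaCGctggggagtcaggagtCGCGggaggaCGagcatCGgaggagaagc
Meg3, chr12:109540846-109541045, plus strand: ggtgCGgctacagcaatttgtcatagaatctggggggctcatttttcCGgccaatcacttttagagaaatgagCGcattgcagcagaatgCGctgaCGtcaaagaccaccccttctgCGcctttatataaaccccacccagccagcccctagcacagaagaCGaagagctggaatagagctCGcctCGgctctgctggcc
The windows differed widely in their number of CG dinucleotides, counted over 250 bases before to 50 bases after the start. The leading starts of Mest and Snrpn had 17 and 7, against 8 and 3 at their upstream starts. The leading start of Gnas had 40 and its first start 16, and the leading start of Grb10 had 45 and its downstream start 9. Over the member windows used, the count ran from 0, at the Rian window, to 48, at a window of Ppp1r9a. The median was 15.5 over the 60 member windows and 7.0 over all 32851 windows of the table.

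The hexamer TGCCGC, the core of the sequence bound by ZFP57 when methylated, was searched on both strands as the only motif. The search covered 250 bases before to 50 bases after the start, which is longer than the printed sequences. It was found in 13 of 60 member windows (21.7%) and in 11.6% of all windows. The hexamer contains a CG, and member windows had a median of 15.5 CG dinucleotides against 7.0 over all windows. These shares were not matched for CG content, several members have more than 1 window, and the difference was not tested. The member count holds 1 window under both Snrpn and Snurf, and a pair of Mest windows that start 3 bases apart. Among the printed genes the full windows of Nnat, Meg3 and the leading starts of Mest, Snrpn and Grb10 held it. There were 2 copies for Mest and 1 for each of the others. The copy of Meg3 and 1 of those of Mest lie before the printed bases. It was not in the windows of Gnas, Peg3 or the other starts of Mest, Snrpn and Grb10. A match is a description of letters and not a measured binding site.

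Most members were expressed. Of the 42 protein-coding members with a row, 36 were at 1 TPM or more in both libraries, and 59.0% of all 21473 protein-coding genes reached that level. All 6 measured noncoding members did so, beside 14.3% of 5690 long noncoding genes. At 100 TPM or more in both libraries there were 11 protein-coding members, beside 7.42% of protein-coding genes, and 1 noncoding member, Meg3, beside 0.264% of long noncoding genes. The median level over members was 29.1 TPM in replicate 1 and 27.6 TPM in replicate 2, while the median over all protein-coding genes was 4.09 and 3.71 TPM. These shares describe the list and were not tested. Together they made up 1.13% and 0.992% of all TPM, and 1 gene, Nnat, gave 54.9% and 53.8% of that sum. Ordered by mean level, 21 of the 47 pairs of genes adjacent in rank had ranges over the 2 libraries that did not overlap.

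**Figure D1:**
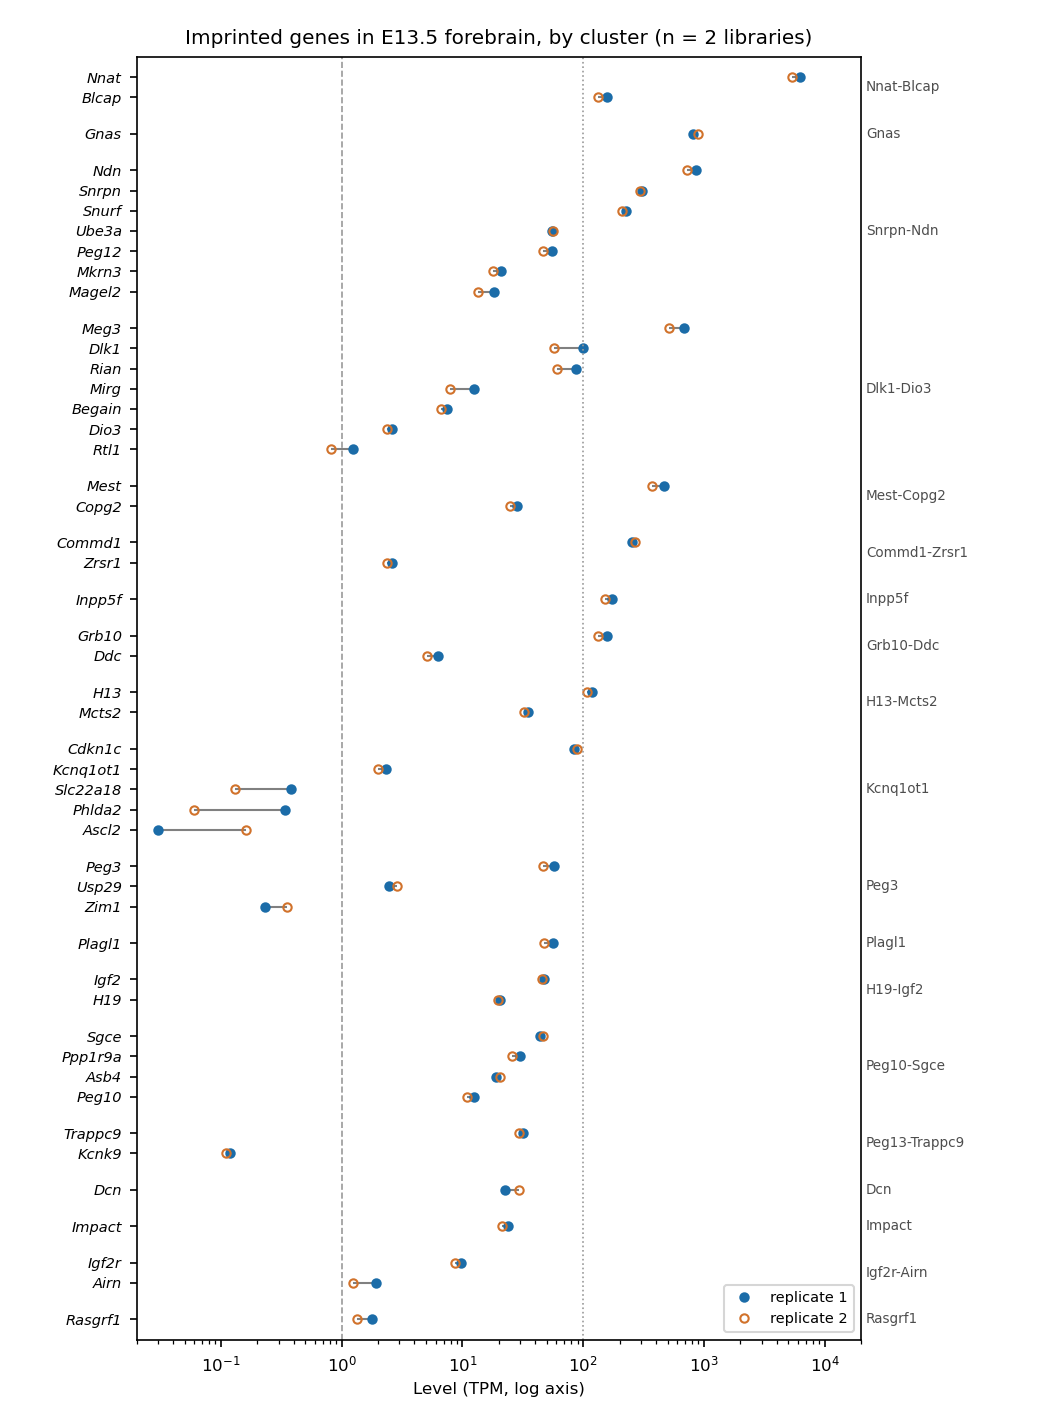
Level of each of the 48 measured imprinted genes in TPM (log axis) in replicate 1 (filled) and replicate 2 (open), grouped by imprinted cluster, with lines at 1 TPM (dashed) and 100 TPM (dotted). Nnat sits highest at 6224 and 5340 TPM, and 5 members lie below 1 TPM in both libraries.

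The Nnat-Blcap domain on chromosome 2 held the most abundant member. Nnat (chr2:157560078-157562522, plus strand), a small membrane proteolipid of the endoplasmic reticulum in developing neurons, was at 6224 TPM in replicate 1 and 5340 TPM in replicate 2, a mean of 5782 ± 625 TPM. No other member came within the range of its values. Its host gene Blcap, which encodes a small protein linked to apoptosis and edited at the RNA level, was at 158 and 132 TPM. Nnat lies inside a Blcap intron on the opposite strand with no shared exon bases, and its level was 39.5 and 40.5 times that of Blcap. In Nnat, 56.1 ± 0.214% of the TPM came from Nnat-202 and 33.9 ± 0.478% from Nnat-205, coding forms whose starts lie within the printed window. Blcap drew 83.0 ± 0.313% from Blcap-202.

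Also on chromosome 2, Gnas (chr2:174284320-174346744, plus strand), the gene of the stimulatory G protein alpha subunit, was at 818 and 889 TPM. It is imprinted from some of its promoters and, for the alpha subunit itself, only in certain tissues. H13, the signal peptide peptidase, was at 119 and 107 TPM. Its intron holds the intronless retrogene Mcts2, which is expressed from the paternal copy and was at 35.3 and 32.6 TPM, so H13 was 3.38 and 3.28 times higher. The host is known to end its transcripts upstream of Mcts2 on the paternal copy and downstream of it on the maternal copy. Here 82.1 ± 0.226% of H13 TPM came from 4 transcripts that end after Mcts2 and 17.9 ± 0.226% from 2 that end before it. H13-202, which ends after it, made up 71.9 ± 0.294%, and H13-206, a form with a retained intron that ends before it, made up 10.9 ± 1.75%.

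On chromosome 6, Mest (chr6:30723547-30748465, plus strand), an enzyme of the alpha/beta hydrolase family that is high in embryonic mesoderm, was at 469 and 370 TPM. Its neighbour Copg2, a coatomer subunit gene known as maternally expressed in some tissues, was at 28.5 and 24.9 TPM, so Mest was 16.5 and 14.9 times higher. They share 912 exon bases on opposite strands, and the counts of both were fractional, so reads there could be divided between them. In the Peg10-Sgce cluster the highest member was Sgce, epsilon-sarcoglycan, at 44.2 and 46.5 TPM. Ppp1r9a, which encodes the actin-binding protein neurabin, was at 29.7 and 25.9 TPM. Asb4, an ankyrin repeat protein of the hypothalamus in later life, was at 19.2 and 20.6 TPM. Peg10, a gene derived from a retrotransposon and needed in the placenta, was lower at 12.54 and 11.01 TPM although its start lies 0.0980 kb from that of Sgce on the opposite strand. The cluster therefore spanned a narrow range, from 11.8 ± 1.08 TPM for Peg10 to 45.3 ± 1.64 TPM for Sgce.

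The Prader-Willi and Angelman region on chromosome 7 was expressed throughout, with 7 of 7 members at 1 TPM or more. Ndn (chr7:62346569-62350262, plus strand), necdin, a MAGE family protein of postmitotic neurons, was at 853 and 724 TPM. Snrpn (chr7:59982495-60140219, minus strand), which encodes the neuronal spliceosome protein SmN, was at 310 and 298 TPM. Snurf, the upstream reading frame of the same transcript, was listed at 228 and 211 TPM. Its row is 216 bases long and lies wholly within Snrpn exons, so its level rests on how shared reads were divided and does not stand for a separate RNA. Ube3a, a ubiquitin ligase expressed from the maternal copy in neurons, was at 55.7 and 55.8 TPM. Its M21 exons share bases with the antisense RNA Snhg14, with strand use in counting not given in the sources used here. Peg12 was at 55.5 and 46.2 TPM, Mkrn3, a makorin RING finger protein, at 21.04 and 17.85 TPM, and Magel2, another MAGE family gene, at 18.4 and 13.6 TPM. Snrpn exceeded Ube3a by 5.57 and 5.34 times within the libraries.

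Elsewhere on chromosome 7 the Peg3 domain held 1 abundant and 2 scarce genes. Peg3 (a zinc finger factor) was at 56.9 and 46.9 TPM. Usp29, a ubiquitin protease gene whose start lies 164 bases from that of Peg3 on the other strand, was at 2.45 and 2.86 TPM, and 33.5% of its longest transcript in M21 is shared with its neighbour Zim3. Peg3 was 23.2 and 16.4 times higher than Usp29, and their RefSeq windows overlap by 263 bases. The Usp29 value rests on 1 transcript of 2610 bases, which starts at chr7:6961160 and not in its window. The ratio is therefore not a comparison of output from the overlapping windows. The sequence shared with Zim3 is 2526 bases long, and how much of it lies in the counted transcript was not examined. Zim1, the maternally expressed zinc finger gene next to Peg3, was at 0.23 and 0.35 TPM, from 17 and 27 counts. Inpp5f, an inositol phosphatase gene, was at 172 and 152 TPM.

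In the H19-Igf2 domain the growth factor gene Igf2 was at 47.7 and 45.7 TPM. In M21, 3598 bases of its longest transcript are also in the overlapping gene Gm49394, though its counts here were whole. The noncoding RNA H19, which shares its enhancers, was at 20.5 and 19.7 TPM, so Igf2 was 2.33 and 2.32 times higher. The libraries differed little for this pair, and the ratio was the most alike of the 15 pairs compared. Igf2r (chromosome 17), the receptor that clears the Igf2 protein, was at 9.80 and 8.66 TPM. In the neighbouring Kcnq1ot1 domain the cyclin-dependent kinase inhibitor Cdkn1c was at 84.5 and 89.8 TPM. The other 3 coding genes of that domain were near the limit of counting, with Phlda2 at 5 and 1 counts, Ascl2 at 1 and 6 counts and Slc22a18 at 12 and 4 counts. These are maternally expressed genes known mainly from the placenta. Cdkn1c, in the same domain, ranked 13 among the members by mean level.

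Single genes and small domains on other chromosomes ranged from Commd1, ranked 7 by mean level, to Kcnk9, ranked 47. Grb10, an adaptor that restrains insulin and growth factor receptors and is paternally expressed in neurons, was at 157 and 134 TPM. Its neighbour Ddc, the aromatic amino acid decarboxylase of monoamine synthesis, was at 6.22 and 5.13 TPM, so Grb10 was 25.2 and 26.1 times higher. Commd1, a regulator of copper handling, was at 254 and 269 TPM. The paternally expressed retrogene Zrsr1 in its intron was 97.1 and 113 times lower, at 2.62 and 2.39 TPM. They share 412 exon bases on opposite strands and had fractional counts. Plagl1, a zinc finger regulator of other imprinted genes, was at 56.2 and 47.5 TPM. Trappc9, a subunit of a vesicle tethering complex, was at 32.1 and 29.3 TPM, and its neighbour Kcnk9, a potassium channel, had 3 counts in each library. Impact, an inhibitor of amino acid stress signalling, was at 24.0 and 21.3 TPM. Dcn, decorin, a matrix proteoglycan of connective tissue, was at 22.5 and 29.6 TPM. Rasgrf1, a Ras exchange factor of mature neurons, was at 1.77 and 1.35 TPM.

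The Dlk1-Dio3 domain on chromosome 12 joins paternally expressed coding genes with maternally expressed noncoding RNAs read on the plus strand. Meg3 (chr12:109541001-109571726, plus strand), the first of these RNAs, was at 679 and 510 TPM and was the fourth most abundant member. Rian, a host of small nucleolar RNAs, was at 86.6 and 61.3 TPM. Mirg, a host of microRNAs, was at 12.5 and 7.88 TPM. In both libraries Meg3 was above Rian and Rian above Mirg, which is the order in which they lie on the chromosome. Of the coding genes, Dlk1, a noncanonical Notch ligand of the Delta family, was at 99.6 and 57.3 TPM. Begain, a synaptic scaffold partner, was at 7.51 and 6.66 TPM, and Dio3, the enzyme that inactivates thyroid hormone, at 2.59 and 2.39 TPM. Rtl1, a gene derived from a retrotransposon, was at 1.25 and 0.820 TPM and so reached 1 TPM in 1 library only. Meg3 was 543 and 621 times higher than Rtl1 and 6.82 and 8.89 times higher than Dlk1.

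The remaining noncoding members are known to silence neighbours on the paternal copy, for some neighbours only in certain tissues, and were low per length. Kcnq1ot1, listed at 84395 bases, was at 2.35 and 2.00 TPM, which rested on 4395 and 4082 estimated counts because the RNA is so long. Cdkn1c was 36.0 and 44.9 times higher. Airn was at 1.91 and 1.24 TPM from 38 and 30 counts, and Igf2r, which it overlaps on the opposite strand, was 5.13 and 6.98 times higher. Igf2r is counted here among the members whose imprinting depends on tissue or isoform. The Airn row holds spliced forms with a mean length of 996 and 1096 bases, and unspliced RNA outside those exons is not in its value. Over the 6 measured noncoding members the median was 16.5 and 13.8 TPM, against 30.9 and 29.5 TPM for coding members. The difference of median log2(TPM + 1), coding minus noncoding, was 1.04 ± 0.18. It was 0.47 as a difference of means and 1.63 among members at 1 TPM or more.

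**Figure D2:**
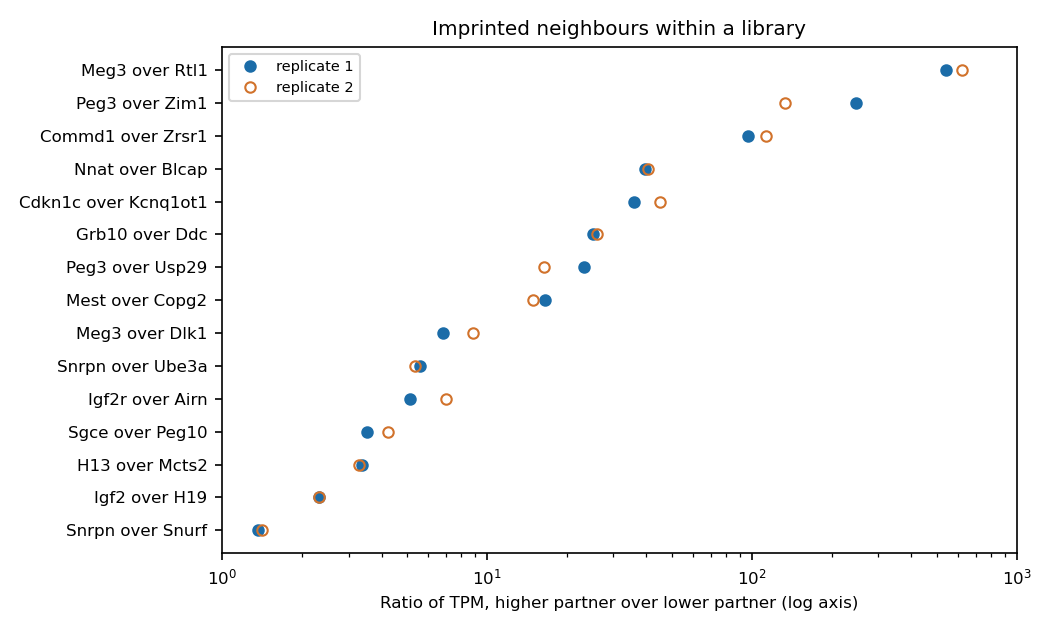
Ratio of TPM between 15 pairs of imprinted neighbours (log axis), as the higher partner over the lower one, in replicate 1 (filled) and replicate 2 (open). The ratios run from 1.36 for Snrpn over Snurf, which share reads, to 621 for Meg3 over Rtl1, and the same partner was higher in both libraries for each pair.

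Members were also grouped by the parental copy they are known to be expressed from in most tissues. The 22 paternally expressed members had a median of 39.6 TPM, from Rtl1 at 1.03 ± 0.304 TPM to Nnat. The 11 maternally expressed members had a median of 10.2 TPM, from Ascl2 at 0.095 ± 0.0919 TPM to Meg3 at 594 ± 120 TPM. At 1 TPM or more in both libraries were 21 of the 22 and 6 of the 11. The difference of median log2(TPM + 1), paternal minus maternal, was 1.59 in replicate 1 and 2.16 in replicate 2, a mean of 1.87 ± 0.40. It was 0.60 with wider lists of 23 paternally and 18 maternally expressed members, which add genes whose imprinting depends on tissue or isoform. Members of mixed parental origin are in neither list. The difference was 0.21 among members at 1 TPM or more, so it rested on the 5 maternally expressed genes near 0. The 15 members of the tissue- or isoform-dependent kind were at 1 TPM or more in 15 of 15 cases, with a median of 30.7 TPM.

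Several members are imprinted from 1 promoter and not from another, so the share of a gene's TPM was taken by start region, where annotated starts within 500 bases were joined. These shares are the authors' estimates from reads that isoforms largely have in common, and they cover transcripts that are in GENCODE M21. Among 24 members with several start regions and a mean of at least 100 counts, the leading region was the first one in 12 and a later one in 12. It held at least 90% of the TPM in 12.

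Inpp5f is the clearest case of an internal start. The region 76.2 kb downstream of the first start, annotated as Inpp5f-208, held 85.8 ± 0.202% of its TPM, with 86.0% in replicate 1 and 85.7% in replicate 2. A further 9.13 ± 0.606% came from a start at 77.2 kb, and the first start of the full-length gene held 4.65 ± 0.164%. A variant of Inpp5f from an internal start is known to be paternally expressed in the brain, whereas the full-length form is not imprinted. Joining starts within 1000 bases, chosen after the data were seen, put 94.9% in the downstream region.

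In Gnas the region 45.7 kb downstream of the first start, whose window is printed above with 40 CG dinucleotides, held 94.6 ± 1.68% of the TPM. The region at 43.2 kb held 3.42 ± 1.24%, the first start 0.763 ± 0.117% and the one at 13.5 kb 0.131 ± 0.00609%. Gnas-208, a coding form from the leading region, alone made up 85.3 ± 0.108%. The upstream starts are the ones known to give imprinted products in most tissues, and the first of them held 6.92 and 6.05 TPM here. The antisense RNA of the locus, Nespas, which is not among the members, was at 6.66 and 6.10 TPM.

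Mest, Snrpn and Grb10 each drew most of their TPM from 1 of their printed windows. The leading start of Mest held 95.6 ± 0.693%, and the upstream window held 0 in replicate 1 and 0.10% in replicate 2. In Snrpn the downstream start held 89.4 ± 0.643% and the start 135 kb upstream of it 10.6 ± 0.643%. Grb10 had 92.3 ± 2.45% at its leading start and 4.46 ± 2.09% at the downstream start, which lies 10.7 kb from the first annotated one. For Grb10 the deposited values do not give which start belongs to which parental copy. The share of the start at 10.7 kb was 5.94% in replicate 1 and 2.99% in replicate 2, so it was not steady between the libraries.

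Igf2, Meg3, Rian and Dlk1 were spread over more starts. Igf2 had 44.0 ± 1.25% at its first start, 19.8 ± 1.99% at 9.32 kb and 28.7 ± 1.72% at 13.8 kb. That last region is a processed transcript of 958 bases without a coding call. The first start rested on Igf2-203, a transcript of 650 bases that held 19.7% of the gene's counts, fewer than Igf2-202. Meg3 had 62.6 ± 2.55% at its first start. Over the whole gene Meg3-205 led with 40.4 ± 1.72% of the TPM, followed by Meg3-207 with 17.2 ± 0.866% and Meg3-211 with 14.7 ± 0.278%. Meg3-209, of 14548 bases, had 4.11 ± 0.281% of the TPM. It held 9383 and 6973 counts in replicates 1 and 2, beside 8280 and 7199 for Meg3-205. Rian had 38.9 ± 0.0481% at a start 42.2 kb into the gene and 0.715 ± 0.181% at its first start, where the RefSeq window holds 0 CG dinucleotides. Its leading forms were Rian-202 with 33.9 ± 0.321%, Rian-213 with 26.0 ± 0.207% and Rian-209 with 11.8 ± 0.491%. Dlk1 had 68.9 ± 0.772% at its second region, led by Dlk1-205 with 51.9 ± 2.50%, and 20.0 ± 2.11% from Dlk1-210, which retains an intron.

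Where RefSeq gave windows at the leading start and at another start of the same member, they were set side by side, for 10 members. The window at the leading start had the most CG dinucleotides in 8 of them. The exceptions were Igf2, with 2 at its leading start and 14 at another, and Asb4, with 6 and 8. This comparison was chosen after the shares were seen and is given as a count without a test.

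**Figure D3:**
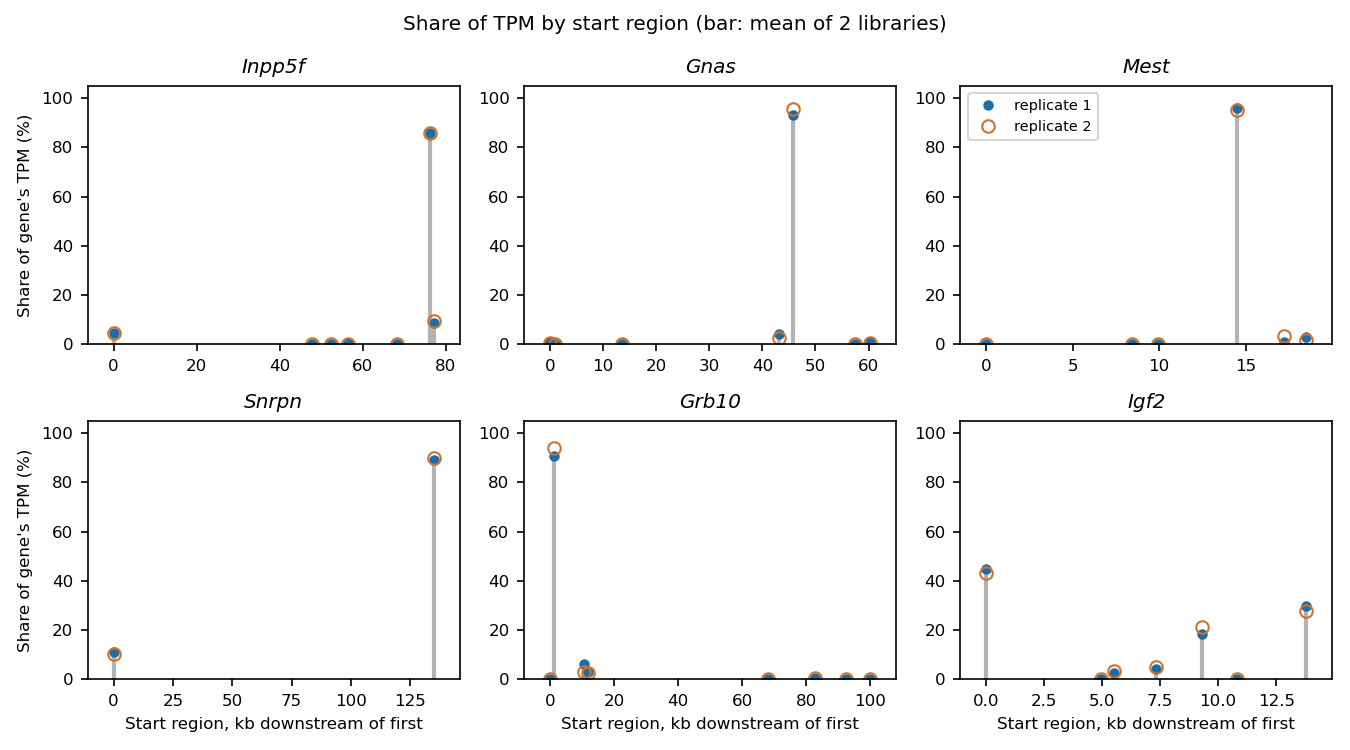
Share of a gene's TPM (%) by annotated start region, against the distance of the region from the gene's first start in kb, for 6 imprinted genes in replicate 1 (filled) and replicate 2 (open), with bars at the mean. Inpp5f and Gnas peak at 76.2 and 45.7 kb downstream, at 85.8% and 94.6%, while Igf2 is divided over 3 regions.

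Among 23 members with a mean of at least 100 counts and several transcripts at 5% or more of the TPM, the same transcript led in both libraries for 21, and H19 and Mirg were the exceptions. The leading share had a median of 68.1%, was at least 80% in 6 members and was below 50% in 9. Sgce was among the most divided, with Sgce-205 at 38.9 ± 1.19% and Sgce-206 at 21.6 ± 2.56%. Another form, Sgce-202, was at 21.5% in replicate 1 and 8.58% in replicate 2. Peg10 had 46.4 ± 0.184% from a transcript that is not in M21, 37.6 ± 1.71% from Peg10-203 and 16.1 ± 1.53% from Peg10-202. That first transcript is short and held 17.7% of the counts, so Peg10-203 led by counts. Peg3 drew 84.9 ± 2.70% from Peg3-201 and 10.1 ± 2.77% from Peg3-203. Trappc9 drew 74.2 ± 1.18% from Trappc9-202 and 21.9 ± 0.430% from Trappc9-201. In Plagl1, Plagl1-202 made up 68.1 ± 1.16%. In Igf2, Igf2-203 at the first start was followed by Igf2-208 and by Igf2-202, the last with 18.3 ± 2.25%. Kcnq1ot1, Ube3a and Snurf had 1 transcript each in the tables.

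The noncoding members of chromosome 12 are also precursors of microRNAs, which these libraries cannot show because RNA under 200 bases was removed. By RefSeq position, 14 hairpins lie in Mirg, 3 in Rian and 1 in Meg3 on the same strand, 1 each in H19 and Igf2, and 6 lie opposite Rtl1, a gene that several of them are known to silence, with 1 more on its own strand. None of their rows in the gene tables was above 0 TPM. Most had an effective length of 0, since the authors' effective length is the length minus 99 bases, so a value of 0 carries no information on the hairpins. The 51 mature sequences of these hairpins held 50 different seeds. A pair of microRNAs opposite Rtl1 and the pair in Mirg with a shared seed are printed 5′ to 3′ from RefSeq on GRCm38.p6, with bases 2 to 8 in capitals.
mmu-miR-127-3p, chr12:109592888-109592909, plus strand: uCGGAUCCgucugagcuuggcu
mmu-miR-136-5p, chr12:109595331-109595352, plus strand: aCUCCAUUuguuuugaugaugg
mmu-miR-453, chr12:109735669-109735692, plus strand: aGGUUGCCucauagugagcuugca
mmu-miR-496a-5p, chr12:109739132-109739152, plus strand: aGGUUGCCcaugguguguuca
The host RNAs differed in level by far more than their number of hairpins. Mirg, with 14, was at 10.2 ± 3.23 TPM, whereas Meg3, with 1, was at 594 ± 120 TPM.

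Between the libraries most members were lower in replicate 2. Of 41 members with a mean of at least 100 counts, 33 were lower and 8 higher in TPM, and 75.3% of all 12701 genes with that count were lower. The members' median log2 ratio of replicate 2 over replicate 1 was −0.18, against −0.11 for all genes. With counts scaled by TMM, which moved the median of all genes to 0.0087, 26 members were lower and 15 higher, beside 47.5% of all genes lower, and the members' median was −0.076. The 7 members that were lower in TPM and higher with TMM scaling were Dio3, H19, Igf2, Mcts2, Ppp1r9a, Snrpn and Snurf. No member differed by 2-fold or more, and 0.559% of all genes did. At 1.5-fold, 3 members were lower in replicate 2 (2.43% of genes) and none was higher (0.512% of genes). These were Dlk1, Mirg and Rtl1, and with TMM scaling only Dlk1 was past 1.5-fold (1.31% of genes lower).

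All 7 members of the Dlk1-Dio3 domain were lower in replicate 2 in TPM, beside 75.3% of all genes. The domain's medians and the counts without it were chosen after the ratios were seen. The log2 ratios were −0.80 for Dlk1, −0.66 for Mirg, −0.61 for Rtl1, −0.50 for Rian, −0.41 for Meg3, −0.17 for Begain and −0.12 for Dio3. Their median was −0.50 in TPM and −0.38 with TMM scaling, under which 6 of the 7 were lower and Dio3 was 0.011 higher. The 5th to 95th percentile of all genes in TPM ran from −0.46 to 0.21, so 4 of the domain's genes lay below it. Paternally and maternally expressed genes of the domain both had ratios below 0 in TPM, as did most genes. For members imprinted alike in most tissues, the median was −0.23 over 20 paternally and −0.23 over 6 maternally expressed genes. Those 6 were Meg3, Rian and Mirg of the domain, with Asb4 at 0.10, Cdkn1c at 0.086 and H19 at −0.055. With the wider lists the medians were −0.22 for paternally and −0.13 for maternally expressed members. Without the domain, 26 of 34 members were lower in TPM (75.3% of all genes), with a median of −0.17. With TMM scaling 20 of 34 were lower (47.5% of all genes). Of the other members, Magel2 (−0.44) and Mest (−0.34) were lowest relative to replicate 1. The highest were Dcn at 0.40, Usp29 at 0.22 and Gnas at 0.12, in log2 ratio of TPM.

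Markers of other cell types also differed between the libraries. Of the choroid plexus markers with at least 100 counts, 5 of 5 were lower in replicate 2, with a median log2 ratio of −0.74. Of the erythroid markers 5 of 5 were lower, with a median of −0.55. Over all genes with that count 75.3% were lower in TPM, with a median of −0.11. Markers of meninges and mural cells were higher in 5 of 6, with a median of 0.054, and Dcn, a gene of connective tissue, was at 0.40. Endothelial markers were higher in 4 of 6, with a median of 0.061, and forebrain markers in 5 of 7. The medians were −0.063 for neurons, 0.0030 for apical progenitors and 0.069 for forebrain markers. The part of these cell types in the differences of Dlk1, its neighbours and Dcn was not tested.

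**Figure D4:**
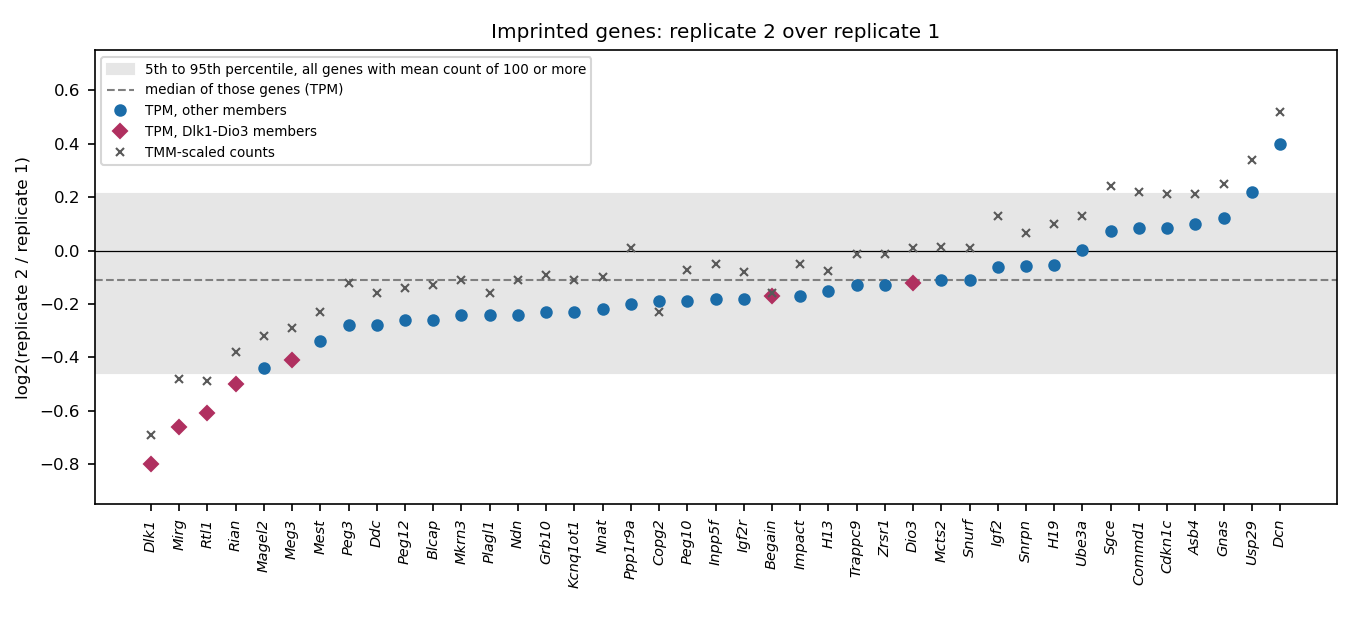
log2 ratio of replicate 2 over replicate 1 for the 41 imprinted genes with a mean of at least 100 counts, in TPM (circles, diamonds for the Dlk1-Dio3 domain) and with TMM-scaled counts (crosses). The grey band is the 5th to 95th percentile of all genes in TPM, and Dlk1, Mirg, Rtl1 and Rian lie below it while Dcn and Usp29 lie above it.

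Other imprinted genes and the genes that keep imprints were measured from separate lists. Of 52 further imprinted genes 49 had a row, 34 of them were at 1 TPM or more, and their median was 5.70 TPM, below that of the members. The highest were the nucleosome assembly gene Nap1l4 at 271 ± 16.2 TPM, the tetraspanin gene Cd81 at 188 ± 14.3 TPM and the apoptosis inhibitor Bcl2l1 at 132 ± 7.54 TPM, and the lowest was the noncoding RNA Nctc1 at 0.0300 ± 0.0141 TPM. Of 23 imprint control genes 20 were at 1 TPM or more, with a median of 42.0 TPM. Trim28, the corepressor recruited by ZFP57, led at 236 ± 15.9 TPM. It was followed by Zfp57, the zinc finger factor that reads the methylated hexamer, at 185 ± 10.9 TPM, and by the insulator protein gene Ctcf at 138 ± 7.13 TPM. Dnmt1, the maintenance DNA methyltransferase, was at 71.6 ± 8.48 TPM. Dppa3, which protects imprints in the egg and early embryo, had no count in either library.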

How the data were processed

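Total RNA longer than 200 bases was extracted with a mirVana kit and spike-in RNA was added, per the labels' protocols, with a linked manual for a low-input cDNA kit. The gene and transcript tables refer to mm10 and GENCODE M4, per the metadata deposited with them. Not given in the sources used here were the aligner, read length and use of strand. The expected counts were deposited as the authors' estimates, with shared reads divided between features, and 11 members have fractional ones. The deposited TPM and FPKM values are the authors' length-normalised levels. The deposited percent column is the authors' share of a transcript in its gene, and the printed shares were recomputed from TPM.

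Symbols, classes and coordinates came from GENCODE M21 on GRCm38 by identifier, with 42462 of 43346 mouse genes matched, and 272 of 277 member transcripts (229 with the same length). Promoter and microRNA sequences are RefSeq's on GRCm38.p6. Totals were 35378462 and 36793284 expected counts. Levels are means ± SD of 2 libraries. Ratios between libraries use TPM of genes with a mean of at least 100 counts. Rounded counts were scaled with edgeR 4.0.16 (TMM) and DESeq2 1.42.0 as alternatives, and shared sequence was sought with BLAST 2.17.0. Other steps used Python 3.11.15 and pandas 2.3.3.

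The members and lists were chosen with earlier results of these data known. By rule, the text gives both libraries for members with a mean of at least 10 TPM, noncoding members and the lower partner of each neighbour pair, 3 members in each direction between libraries where none passes 2-fold, and for the other lists the 3 highest genes and the lowest. Dnmt1, Nespas and the CG comparison were added after their values were seen. So were the other gaps between start regions, and the results for the Dlk1-Dio3 domain under the scalings and with it left out. Alternatives were other units, thresholds, scalings, summaries and leaving out each library.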

Additional observations from a re-analysis of the deposited data

How the results depend on the processing

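Counts of members at 1 TPM or more and at 100 TPM or more stayed within 1.5 times under each alternative tried, from 36 to 43 and from 9 to 16. The median level of the members was 17.5 in FPKM, 39.6 TPM among members at 1 TPM or more, and 27.6 to 29.1 TPM when 1 library was left out. The paternal minus maternal difference of median log2(TPM + 1) was 0.60 with the wider lists, which add 7 maternally and 1 paternally expressed member, 0.21 among members at 1 TPM or more, which leaves out 5 maternally and 1 paternally expressed member, and 1.59 to 2.16 without 1 library. The coding minus noncoding difference was 1.63 among members at 1 TPM or more and 0.47 as a difference of means, and 0.91 to 1.17 without 1 library. The median log2 ratio between libraries was −0.076 with TMM and −0.075 with DESeq2 size factors, and no member passed 2-fold with either. The DESeq2 size factors were 1 and 1, and the TMM effective library sizes were 35239202 and 35277712. Both scalings thus left the counts nearly unscaled, and they are not independent checks of each other. In TPM 3 members passed 1.5-fold, and with TMM 1 did, Dlk1. The median share of the leading transcript was 63.7% with posterior mean values and 65.1% to 68.9% without 1 library. Taken from expected counts, which weigh long transcripts more, the leading share moved by more than the SD in 21 of 23 members and another transcript led in 7. It moved by over 1.5 times in 4, from 44.0% to 19.7% in Igf2, from 46.4% to 17.7% in Peg10, from 36.7% to 14.0% in Ppp1r9a and from 32.0% to 16.9% in Mirg. Levels moved by more than their SD for 5 of 48 members with posterior mean TPM and for 44 in FPKM, which is another scale. The list medians and differences kept their sign, whereas 7 single members that were lower in replicate 2 in TPM were higher with TMM. No paired analysis was possible because the 2 libraries form 1 group. Depth limited Phlda2, Ascl2, Slc22a18 and Kcnk9, with 12 counts or fewer in each library.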
